A study of Mus musculus with 20 samples.

Results

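The acute-phase response genes described here are 10 of the 57010 genes in a count table of mouse liver and kidney. They were chosen by symbol, matched to the Ensembl identifiers of the table: Saa1, Saa2, Saa3, Orm1, Orm2, Hp, Crp, Socs3, Fgb and Serpina3n. RNA was sequenced from livers and kidneys of male UM-HET3 mice, a cross between hybrids of inbred strains in which every animal carries its own mix of alleles. Treatment began at 12 months of age and lasted 28 days. In the 7c group (6 livers and 6 kidneys) osmotic minipumps under the skin delivered valproate at 1 mg/kg/day, together with 0.1 mg/kg/day each of CHIR99021, DZNep, TTNPB, forskolin, repsox and tranylcypromine. In the vehicle group (4 livers and 4 kidneys) the pumps held solvent alone, a mixture of 50% DMSO and 50% PEG300, so that both groups had the implant, the surgery and the solvent.

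The acute-phase response is the change in plasma proteins that the liver makes when tissue is injured or infected. Cytokines of the IL-6 family act through gp130 and STAT3, and IL-1 and TNF act through NF-kB, on hepatocyte genes that also need C/EBP factors, and the products include serum amyloid A, alpha-1-acid glycoprotein, haptoglobin and fibrinogen. Socs3 is induced by the same STAT3 signal and shuts it off, which makes its transcript a short-lived readout of the pathway.

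Livers had total counts of 28383359 to 34153084 per library and kidneys of 27855849 to 64872451. Expression is given as CPM, counts scaled to library size with TMM factors of the tissue. The labelled tissues were matched by their markers: summed over the hepatocyte list, livers had 75915 to 109496 CPM and kidneys 3074 to 4523 CPM, and summed over the proximal tubule list kidneys had 37172 to 73575 CPM and livers at most 1.65 CPM. The liver of 7c replicate 6 stood apart, with 786 CPM of skeletal muscle transcripts (at most 1.51 CPM in any vehicle liver). It also had 23.6 CPM on the loop of Henle and distal tubule list, all of it Pvalb, which fast muscle fibres express too. Without it, 0 of the 10 genes passed the threshold in liver, as with it. Neutrophil transcripts were scarce, at 1.06 to 3.68 CPM in 7c livers and 2.08 to 2.95 CPM in vehicle livers. In whole tissue, fewer cells of a type and less RNA per cell cannot be told apart.

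Both paralog pairs sit side by side in the genome. Saa1 (ENSMUSG00000074115, GRCm39 chromosome 7, 46389916 to 46392547, minus strand), Saa2 (ENSMUSG00000057465, 46401214 to 46403737, plus strand) and Saa3 (ENSMUSG00000040026, 46361422 to 46365576, minus strand) share a cluster, and Orm1 (ENSMUSG00000039196, chromosome 4, 63261052 to 63272189) and Orm2 (ENSMUSG00000061540, 63280686 to 63284115) follow each other on the plus strand. The canonical transcripts of Saa1 and Saa2 were identical at 94.8% of 649 aligned bases with a longest shared run of 76 bases, and those of Orm1 and Orm2 at 91.0% of 775 aligned bases with a run of 141 bases. How reads that fit both copies were counted is not given in the sources used here, so the split of reads within each pair is uncertain. Annotated genes also overlap Saa1, Saa2, Orm1, Crp and Socs3.

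The 250 bases upstream of the start of the canonical transcript follow for both paralog pairs, whose members varied most alike in liver within their family, and for Fgb, whose window held the most kinds of motif. For Orm1 that start lies inside the span of the gene given above, which other annotated transcripts extend upstream. Sequence is from GRCm39 with starts from GENCODE vM39, read 5′ to 3′ on the gene's strand. Capitals mark matches, on either strand, to the letters TTNNGNAA (C/EBP), TTCNNNGAA (STAT), CTGGGAA (the IL-6 type II element) or GGANTTTCC (NF-kB).
Saa1, chr7:46392548-46392797, minus strand: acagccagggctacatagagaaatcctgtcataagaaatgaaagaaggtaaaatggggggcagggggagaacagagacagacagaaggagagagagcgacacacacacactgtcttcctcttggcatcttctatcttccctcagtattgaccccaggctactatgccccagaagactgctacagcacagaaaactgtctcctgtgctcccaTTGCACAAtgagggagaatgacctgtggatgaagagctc
Saa2, chr7:46400964-46401213, plus strand: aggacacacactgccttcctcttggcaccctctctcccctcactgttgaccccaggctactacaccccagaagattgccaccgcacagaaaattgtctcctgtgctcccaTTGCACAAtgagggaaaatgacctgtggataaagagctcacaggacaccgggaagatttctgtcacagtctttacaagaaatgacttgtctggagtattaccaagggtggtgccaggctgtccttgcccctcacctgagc
Orm1, chr4:63262502-63262751, plus strand: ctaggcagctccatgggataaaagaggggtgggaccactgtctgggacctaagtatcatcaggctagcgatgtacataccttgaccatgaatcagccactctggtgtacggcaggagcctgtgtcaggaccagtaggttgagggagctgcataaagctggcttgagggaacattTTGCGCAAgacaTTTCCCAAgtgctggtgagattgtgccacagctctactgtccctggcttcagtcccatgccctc
Orm2, chr4:63280436-63280685, plus strand: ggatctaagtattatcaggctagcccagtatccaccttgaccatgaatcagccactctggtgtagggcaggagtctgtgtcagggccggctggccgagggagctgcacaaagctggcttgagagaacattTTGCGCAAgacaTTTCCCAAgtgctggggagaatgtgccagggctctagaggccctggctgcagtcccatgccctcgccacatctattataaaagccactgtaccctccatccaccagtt
Fgb, chr3:82957171-82957420, minus strand: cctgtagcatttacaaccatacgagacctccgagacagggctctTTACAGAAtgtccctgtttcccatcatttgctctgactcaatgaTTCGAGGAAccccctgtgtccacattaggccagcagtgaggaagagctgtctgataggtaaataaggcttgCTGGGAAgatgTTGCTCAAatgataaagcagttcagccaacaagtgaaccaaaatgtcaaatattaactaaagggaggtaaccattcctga

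Saa1 and Saa2 carried the same C/EBP letters, TTGCACAA, 39 to 32 bases upstream of the Saa1 start and 140 to 133 bases upstream of the Saa2 start. The offset between the pair follows from where the annotation places each start. Orm1 and Orm2 also shared their letters, TTGCGCAA at 76 to 69 and 120 to 113 bases upstream, each followed by TTTCCCAA. Fgb held C/EBP letters at 80 to 73 bases upstream, the IL-6 type II letters at 91 to 85 and STAT letters at 162 to 154. C/EBP letters were in the windows of 7 of the 10 genes and in 36.9% of the windows of 21770 protein-coding genes. STAT letters were in 2 of 10 (Fgb and Socs3) and in 7.70% of all windows, and the IL-6 type II letters were in 2 of 10 (Fgb and Saa3) and in 9.75%. The letters GGANTTTCC (NF-kB) were in 0 of 10 and in 1.18% of all windows. In the 10 windows no match to one motif overlapped a match to another. A match is a description of the sequence and no evidence that a factor binds it.

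The first comparison asked whether 28 days of 7c moved these genes in liver. No member passed the threshold. All 10 members were among the 15012 liver genes with enough counts to test, and by edgeR's quasi-likelihood F-test 0 of 10 had an adjusted p under 0.05, against 0.00666% of all genes tested (1 gene). DESeq2, limma-voom and edgeR's likelihood ratio test also called 0 of 10. At an unadjusted p under 0.05 the quasi-likelihood test had 1 of 10, Orm2, against 3.76% of all genes, and limma-voom had 2 of 10 against 4.13%. The median log2 fold change of the members was 0.11, beside 0.00 over all genes tested, with 6 members positive and 4 negative. In no member were all 6 7c livers above every vehicle liver, which held for 0.32% of the genes tested, or all below, which held for 0.4%.

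Saa1 and Saa2 encode the serum amyloid A proteins that the liver loads onto HDL during inflammation. Saa1 had 35.4, 18.0, 18.4 and 22.9 CPM in the vehicle livers. In the 7c livers it had between 24.0 and 38.7 CPM, with a median of 31.0 CPM. Every 7c liver was above 3 of the vehicle livers, and vehicle replicate 1 lay inside the 7c range. The means were 30.8 ± 5.98 CPM (SD, n = 6) and 23.7 ± 8.10 CPM (SD, n = 4), a log2 fold change of 0.38 (SE 0.199, unadjusted p = 0.0774, adjusted p = 1.00 by edgeR). The 95% interval ran from 0.967-fold to 1.75-fold. Over 18 alternative settings the log2 fold change ranged from 0.27 without vehicle replicate 2 to 0.64 without vehicle replicate 1, the unadjusted p from 0.00259 to 0.213 and the adjusted p from 0.641 to 1.00.

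Saa2 had 7.98, 3.44, 2.50 and 9.47 CPM in the vehicle livers and 4.66 to 14.8 CPM in the 7c livers, with a median of 7.73 CPM. The groups overlapped, and only 7c replicates 3 and 4 were above every vehicle liver. The log2 fold change was 0.57 (SE 0.382, unadjusted p = 0.157, adjusted p = 1.00 by edgeR), with a 95% interval from 0.841-fold to 2.63-fold. Over 18 alternative settings the log2 fold change of Saa2 ranged from 0.32 to 0.91. Saa3, the family member that is also made outside the liver, by macrophages and fat cells, had 0.989, 1.46, 3.01 and 2.72 CPM in the vehicle livers and 1.34 to 7.51 CPM (median 2.02 CPM) in the 7c livers. Replicates 3 (7.51 CPM) and 4 (5.28 CPM) were again the only 7c livers above the vehicle range. The fitted log2 fold change of Saa3 was 0.70 (SE 0.509, unadjusted p = 0.192, adjusted p = 1.00 by edgeR), with an interval from 0.759-fold to 3.47-fold. It ranged from 0.28 to 0.95 over 18 alternative settings, and the vehicle median, 2.09 CPM, was above the 7c median.

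Orm1 and Orm2 encode alpha-1-acid glycoproteins, plasma lipocalins that bind many drugs. Orm1 had 601.9, 534.8, 554.4 and 560.2 CPM in the vehicle livers and 415.1 to 650.5 CPM (median 610.2 CPM) in the 7c livers. The ranges overlapped on both sides, with 3 of 6 7c livers above the vehicle range and 2 of 6 below it. Its log2 fold change was 0.03 (SE 0.120, adjusted p = 1.00 by edgeR), and the 95% interval, 0.854-fold to 1.22-fold, was among the narrowest of the 10.

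Orm2, expressed far below Orm1, had 7.52, 7.25, 8.44 and 8.33 CPM in the vehicle livers. In the 7c livers it had 10.2, 16.8, 9.30, 14.3, 6.97 and 10.5 CPM. The vehicle livers lay close together, 5 of 6 7c livers were above all of them, and 7c replicate 5 was below all of them. The means were 11.3 ± 3.55 CPM (SD, n = 6) and 7.89 ± 0.591 CPM (SD, n = 4), with a log2 fold change of 0.52 (SE 0.214, unadjusted p = 0.0291, adjusted p = 1.00 by edgeR) and a 95% interval from 1.04-fold to 1.98-fold. The exact two-sided permutation test over all 210 splits of the 10 livers gave p = 0.0857. Over 18 alternative settings the unadjusted p ranged from 0.00577 to 0.140 and the adjusted p from 0.641 to 1.00.

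**Figure D1:**
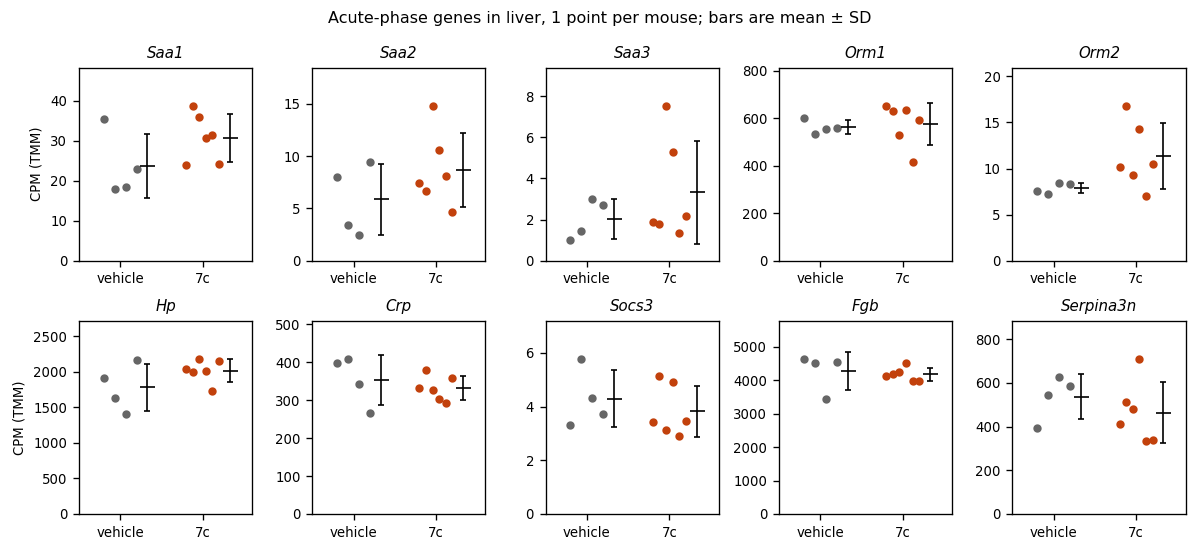
CPM of each of the 10 genes in every vehicle (grey, n = 4) and 7c (orange, n = 6) liver, with linear axes from 0; black bars are the mean ± SD. The vehicle and 7c points overlap in all 10 panels, and in the Orm2 panel 5 of 6 7c livers are above all 4 vehicle livers and 1 is below them.

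Haptoglobin, the product of Hp (ENSMUSG00000031722, chromosome 8, 110301759 to 110305804), captures hemoglobin released into plasma. Hp had 1918, 1633, 1404 and 2163 CPM in the vehicle livers and 1728 to 2173 CPM (median 2023 CPM) in the 7c livers. Only 1 of 6 7c livers was above the vehicle range, and the log2 fold change was 0.18 (SE 0.120, adjusted p = 1.00 by edgeR). Fgb (ENSMUSG00000033831, chromosome 3, 82947448 to 82957170) encodes the beta chain of fibrinogen, the precursor of fibrin clots. It had 4623, 4524, 3427 and 4555 CPM in the vehicle livers and 3985 to 4508 CPM (median 4166 CPM) in the 7c livers. All 6 7c livers lay within the vehicle range, which vehicle replicate 3 extended downward, and the log2 fold change was -0.04 (SE 0.0999, adjusted p = 1.00 by edgeR).

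Crp (ENSMUSG00000037942, chromosome 1, 172525614 to 172660598) encodes C-reactive protein, a pentraxin that is a major reactant in humans and a minor one in mice. It had 398.0, 407.3, 343.2 and 264.8 CPM in the vehicle livers and 292.9 to 379.0 CPM (median 329 CPM) in the 7c livers. No 7c liver was outside the vehicle range, and the log2 fold change was -0.09 (SE 0.123, adjusted p = 1.00 by edgeR). Serpina3n (ENSMUSG00000021091, chromosome 12, 104372810 to 104380597), a secreted serine protease inhibitor, had 393.6, 543.6, 628.7 and 583.8 CPM in the vehicle livers and 333.5 to 707.6 CPM (median 447 CPM) in the 7c livers. 7c replicate 4 was the highest of all 10 livers and 7c replicates 5 and 6 the lowest, and the log2 fold change was -0.21 (SE 0.199, adjusted p = 1.00 by edgeR). Socs3 (ENSMUSG00000053113, chromosome 11, 117856905 to 117860898), the feedback inhibitor, had 3.33, 5.76, 4.32 and 3.74 CPM in the vehicle livers and 2.89 to 5.15 CPM (median 3.44 CPM) in the 7c livers. Its log2 fold change was -0.17 (SE 0.239, adjusted p = 1.00 by edgeR), with 2 of 6 7c livers below the vehicle range and none above it.

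Within the 7c group, the liver of replicate 5 had the lowest level of 8 of the 10 members, all except Saa1 and Saa2. Its summed hepatocyte markers were 102668 CPM, the second highest of the 6 7c livers. The part of that library in the results was not tested beyond leaving it out, which left 0 of 10 members past the threshold.

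The plot of fitted changes sets the 10 liver intervals beside the 5 that could be had in kidney.

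**Figure D2:**
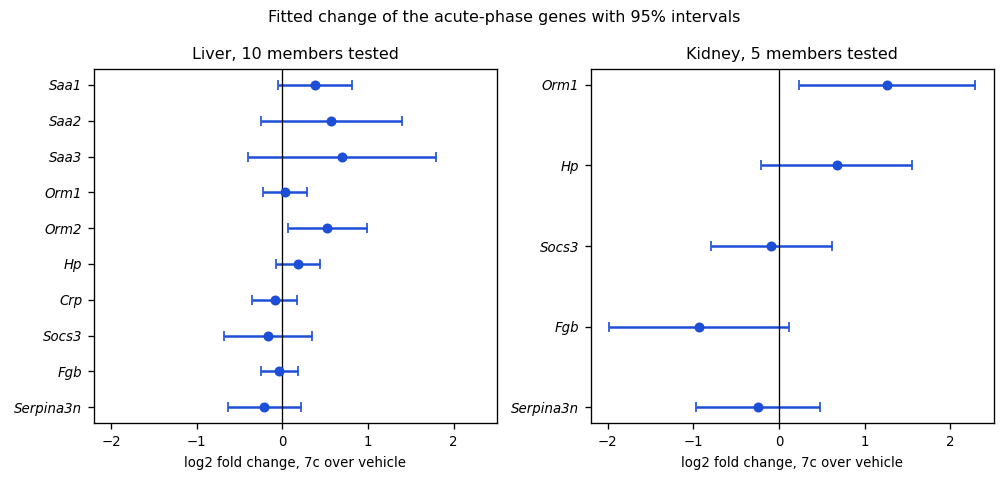
Log2 fold change of 7c over vehicle for the 10 members tested in liver (left) and the 5 tested in kidney (right); points are the edgeR estimates and bars their 95% intervals. The intervals of liver Orm2 and kidney Orm1 do not reach 0, and all others do.

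The other genes of the pathway were read in the same liver fit, and 0 of them passed the threshold in any list. Of 33 other positive acute-phase proteins, 30 were tested, 20 with a positive and 10 with a negative log2 fold change, and their median was 0.04. The smallest p among them belonged to Lcn2, which encodes the siderophore-binding lipocalin 2. Lcn2 had 1.32, 1.20, 1.31 and 1.52 CPM in the vehicle livers and 1.88 to 4.31 CPM in the 7c livers. All 6 7c livers were above every vehicle liver, which held for 0.32% of the genes tested. The log2 fold change of Lcn2 was 1.07 (SE 0.299, unadjusted p = 0.00327, adjusted p = 1.00 by edgeR). Hpx, the heme carrier hemopexin, is a plasma partner of haptoglobin and had a log2 fold change of 0.20 (SE 0.0955, adjusted p = 1.00 by edgeR). It was named after its values were seen. All 10 negative acute-phase proteins, whose plasma levels fall in inflammation, were tested, 9 with a positive value, and their median log2 fold change was 0.10. The smallest p was that of transferrin, Trf, with a log2 fold change of 0.18 (SE 0.101, adjusted p = 1.00 by edgeR).

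Of the signalling genes, 5 of 11 cytokine ligands and 9 of 11 receptors were tested, with medians of 0.07 and -0.04 on the log2 scale. Il18, a cytokine of the IL-1 family, had the smallest p of the ligands (log2 fold change 0.18, adjusted p = 1.00 by edgeR), and Il22ra1, a subunit of the IL-22 receptor, that of the receptors (0.44, adjusted p = 1.00 by edgeR). All 18 kinases and transcription factors were tested, with a median of 0.03. Cebpb, one of the C/EBP factors that drive acute-phase genes, had 14.6, 15.9, 18.8 and 30.0 CPM in the vehicle livers and 22.1 to 41.8 CPM in the 7c livers. 3 of 6 7c livers were above the vehicle range, and the log2 fold change was 0.68 (SE 0.228, unadjusted p = 0.0106, adjusted p = 1.00 by edgeR). The other gene of this list at an unadjusted p under 0.05 was Cebpd, named after its values were seen (log2 fold change 0.51, adjusted p = 1.00 by edgeR). Relb, an NF-kB subunit gene also named after its values were seen, had all 6 7c livers above every vehicle liver. Its log2 fold change was 0.54 (SE 0.292, unadjusted p = 0.0870 by edgeR).

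Among the feedback and early target genes 16 of 17 were tested, 8 in each direction. Pim1, a kinase gene induced by STAT signalling, had the smallest p: 18.1, 27.4, 27.0 and 18.98 CPM in the vehicle livers and 14.4 to 17.7 CPM in the 7c livers. All 6 7c livers were below every vehicle liver, which held for 0.4% of the genes tested. The log2 fold change of Pim1 was -0.50 (SE 0.136, unadjusted p = 0.00271, adjusted p = 1.00 by edgeR). The only other gene of the list at an unadjusted p under 0.05 was Cish, also a STAT-induced feedback inhibitor, on the positive side (log2 fold change 1.87, SE 0.809, unadjusted p = 0.0370, adjusted p = 1.00 by edgeR). It had 0.469 to 16.7 CPM in 7c livers and 0.568 to 2.09 CPM in vehicle livers, and was named after its values were seen. Of 8 genes that handle serum amyloid A and haptoglobin, 7 were tested with a median of 0.11, and the HDL receptor gene Scarb1 had the smallest p (log2 fold change -0.17, adjusted p = 1.00 by edgeR).

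The members differed widely in level and in how much they varied between livers. Per length of all exons, as TPM, a transcript level scaled to length and library size, the median level over the 10 livers was 4214 TPM for Hp, 4052 for Fgb, 1512 for Orm1, 477 for Serpina3n, 210.1 for Crp, 42.1 for Orm2, 37.0 for Saa1, 10.6 for Saa2, 3.71 for Socs3 and 2.31 for Saa3. Neighbours in this order whose ranges overlapped were Hp and Fgb, Orm2 and Saa1, Saa2 and Socs3, and Socs3 and Saa3, and the other neighbours were separated in all 10 livers. With the length of the canonical transcript, a setting added after the data were seen, Saa1 stood before Orm2 and Saa3 before Socs3. The most abundant members varied least: after the group means were removed, the SD of log2 CPM between livers was 0.14 for Fgb, 0.19 for Hp and 0.20 for Orm1, below the median of 0.30 over all genes tested. It was 0.89 for Saa3 and 0.72 for Saa2, at the 88.2 and 81.8 percentile of all genes tested, with 7.59-fold and 5.90-fold between the highest and the lowest liver. Saa3 rested on 30 to 226 counts per liver and Fgb on 110375 or more. Genes were not matched by level, and the part of counting noise in these SDs was not tested. Together the 10 genes took 0.659 to 0.852% of all counts in a liver.

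Whether livers high in Saa1 were also high in the other members was asked over the 10 livers, in 9 pairs. None passed an adjusted p of 0.05. The closest was Saa2 (Pearson r = 0.736, permutation p = 0.0152, adjusted p = 0.136; Spearman rho = 0.503, permutation p = 0.145, adjusted p = 0.700). Without vehicle replicates 2 and 3, the livers farthest from the median of Saa1 in log2 CPM, the scale of these correlations, r was 0.333. With each treatment group centred it was 0.653, and over the 6 7c livers alone, given as a description, 0.526. Saa3 (r = 0.09) and Crp (r = -0.02) were near 0, and Hp had r = 0.525 (permutation p = 0.119, adjusted p = 0.537), which was -0.349 without the same 2 livers.

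**Figure D3:**
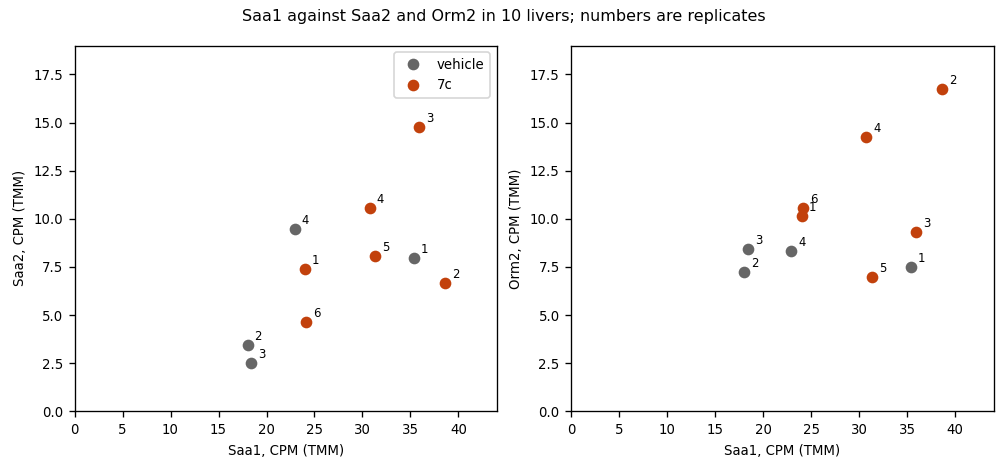
CPM of Saa1 (horizontal axis) against Saa2 (left) and Orm2 (right) in the 10 livers, grey for vehicle and orange for 7c, with replicate numbers beside the points. Vehicle replicates 2 and 3 are low in both Saa1 and Saa2, and r over the 6 7c livers alone was 0.526 for Saa2 and 0.294 for Orm2.

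As a description over all 45 pairs of members, with each group centred, the correlation in liver was highest for Orm1 and Orm2 (r = 0.769), followed by Orm2 and Socs3 (0.714), Saa3 and Serpina3n (0.709) and Hp and Fgb (0.701). It was lowest for Saa2 and Crp (-0.451). The points share library depth and scaling, and the part of reads shared between paralogs was not tested. Outside the list, the genes most like Saa1 over the 10 livers by Pearson r of log2 CPM were Gm57259 (0.940), Rasal2 (0.938), Nmral1 (0.908), Zfand2a (0.905) and Gm16573 (0.882). They were picked as the highest r among all liver genes tested, and no test was run on them. Gm57259 had only 0.143 to 1.12 CPM.

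In kidney the question was the same, at levels so low that the 10 genes together took 0.000551 to 0.00138% of the counts. Only Orm1, Hp, Socs3, Fgb and Serpina3n were among the 17749 kidney genes with enough counts to test. By edgeR's quasi-likelihood F-test 0 of 5 passed the threshold, against 0% of all genes tested. DESeq2, limma-voom and the likelihood ratio test also called 0 of 5. At an unadjusted p under 0.05 there was 1 of 5, Orm1, against 2.61% of all genes, and 0 of 5 by limma-voom. For 0 of 5 were all 7c kidneys above every vehicle kidney (0.31% of the genes tested) or all below (0.406%). The other 5 were described by counts alone. Saa1 had 2 counts in 1 vehicle kidney and 0 in the other 9 libraries, Saa2 had 6 counts in 1 7c kidney, Saa3 had 39 counts over 6 kidneys and Crp had 24 counts over 5 kidneys. Orm2 had 3, 6 and 5 counts in 7c replicates 1, 4 and 6 and 0 counts in the 4 vehicle kidneys, where 3 counts would be 0.0212 CPM of the pooled group.

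Kidney Orm1 had 0.497, 0.390, 0.268 and 0.279 CPM in the vehicle group (8 to 19 counts per library). In the 7c group it had 0.470, 0.300, 1.02, 1.24, 1.38 and 0.817 CPM (10 to 48 counts). Replicates 3 to 6 were above every vehicle kidney, and replicates 1 and 2 lay within the vehicle range. The log2 fold change was 1.26 (SE 0.475, unadjusted p = 0.0203, adjusted p = 0.997 by edgeR), with a 95% interval from 1.17-fold to 4.90-fold, and the exact permutation test gave p = 0.0524. Over 18 alternative settings the unadjusted p ranged from 0.00128 to 0.174 and the adjusted p from 0.476 to 1.00.

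Kidney Hp had 2.41, 2.09, 1.55 and 2.79 CPM in the vehicle group and 1.76, 1.38, 3.79, 3.73, 7.32 and 3.17 CPM in the 7c group. Replicates 3 to 6 were again above the vehicle range, replicate 2 was below it, and the log2 fold change was 0.67 (SE 0.408, unadjusted p = 0.125, adjusted p = 0.997 by edgeR). It was 0.32 without 7c replicate 5, the highest kidney, and ranged from 0.17 to 0.83 over 18 alternative settings.

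Some adipocyte genes were high in the same kidneys. The same 4 7c kidneys, replicates 3 to 6, were above the vehicle range for Orm1, for Hp and for the adiponectin gene Adipoq. Adipoq had 1.36, 0.111, 1.28 and 2.51 CPM in the vehicle kidneys and 1.67, 1.68, 11.4, 5.33, 8.64 and 4.18 CPM in the 7c kidneys, with a log2 fold change of 2.07 (SE 0.703, unadjusted p = 0.0119, adjusted p = 0.997 by edgeR). The replicates above the vehicle range were not the same for every adipocyte gene, being 1 and 3 to 6 for Plin1 and 2 to 6 for Cidec. All 8 genes of the adipocyte list were tested and all 8 were positive, their median being 2.13 on the log2 scale. By edgeR's quasi-likelihood F-test, 7 of the 8 were under 0.05 before adjustment and 0 passed the threshold. That test called 0 kidney genes of any kind, where DESeq2 called 18 and the likelihood ratio test 14. Which of those were adipocyte genes is not given here. The paper's own kidney comparison, also run in edgeR, lists Cidec as higher after 7c at an adjusted p under 0.05. The summed adipocyte list had 278 to 598 CPM in 7c kidneys and 243 to 448 CPM in vehicle kidneys. It was above the vehicle range in 7c replicates 1 (452 CPM), 3, 4 and 5. Replicates 2 and 6 (278 and 319 CPM) lay within that range. Plin1, Lep and Cfd were at 0 in at least 1 vehicle kidney. The part of fat tissue in the Orm1 and Hp values was not tested. The neutrophil list was at 2.52 to 5.16 CPM in 7c kidneys and 1.65 to 3.02 CPM in vehicle kidneys, and its 3 tested genes were positive with a median log2 fold change of 0.69 and 0 at an unadjusted p under 0.05. The erythroid list had 471 to 2259 CPM in 7c kidneys and 308 to 1309 CPM in vehicle kidneys, with 5 of 5 genes positive, a median log2 fold change of 0.84 and 0 at an unadjusted p under 0.05. Its highest kidneys were 7c replicates 5 and 1, and its part in the Orm1 and Hp values was not tested. In liver 4 of 5 erythroid genes were positive, with a median of 0.79 and 0 at an unadjusted p under 0.05.

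Kidney Fgb lay in the other direction. It had 2.04, 2.90, 1.77 and 1.12 CPM in the vehicle group and 1.64, 0.120, 0.802, 1.35, 1.13 and 1.06 CPM in the 7c group. 3 of 6 7c kidneys were below the vehicle range and none was above it, with replicate 2 lowest at 4 counts. The log2 fold change was -0.94 (SE 0.485, unadjusted p = 0.0767, adjusted p = 0.997 by edgeR), with a 95% interval from 0.252-fold to 1.08-fold. Other genes that the liver makes in bulk were read in the same fit, each named here with an adjusted p of 0.997 by edgeR. Of 8 negative acute-phase genes tested, 4 were positive and 4 negative, with a median log2 fold change of 0.0041, and the 3 at an unadjusted p under 0.05 were all negative. They were albumin, Alb, with 8.69 to 30.7 CPM in 7c kidneys and 22.8 to 44.04 CPM in vehicle kidneys (log2 fold change -1.08), the fetuin-A gene Ahsg (-2.20), which had the smallest p of the list, and Apoa1 (-1.73). The fibrinogen alpha chain gene Fga had 14.4 to 27.7 and 18.4 to 24.7 CPM, with a log2 fold change of -0.03, and the gamma chain gene Fgg had -0.51. Of the hepatocyte list, 2 of 8 tested genes were positive, the median log2 fold change was -0.15, and the 3 at an unadjusted p under 0.05 were all negative: Alb, Apoa2 (-1.58) and Cps1 (-2.99). The summed list had 3074 to 4523 CPM in 7c kidneys and 3657 to 4267 CPM in vehicle kidneys, most of it from Cyp2e1 and Pck1, which kidney tubules also express. The part of hepatocyte transcripts in the Fgb value was not tested. Apoa1, Cps1, Fga, Fgg, Plin1, Lep, Cfd and Cidec were named here after their values were seen.

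**Figure D4:**
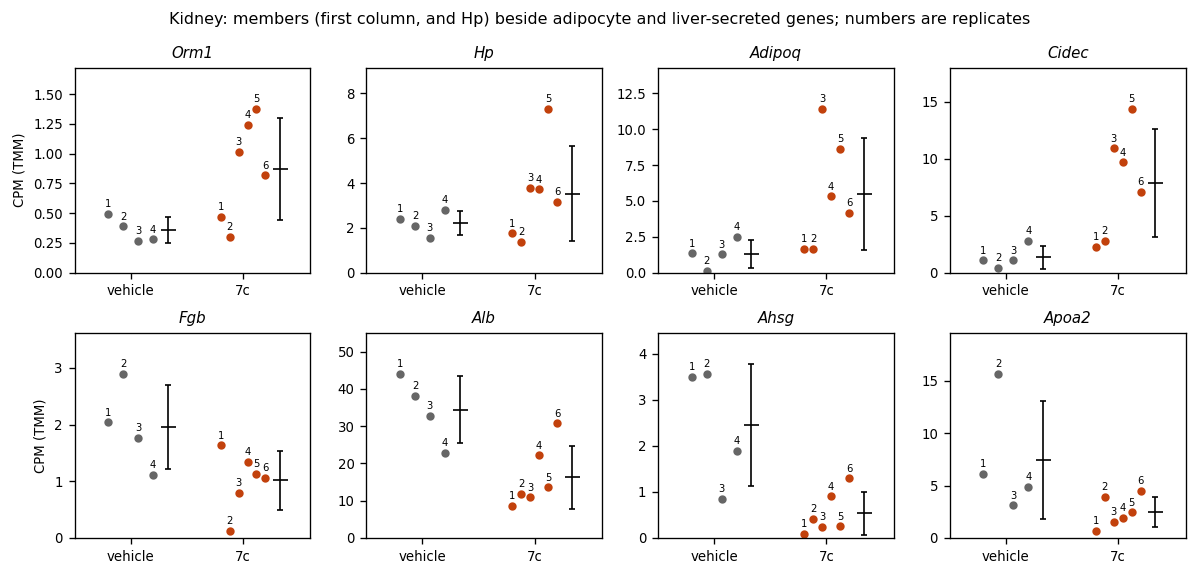
CPM in each vehicle (grey, n = 4) and 7c (orange, n = 6) kidney for the members Orm1, Hp and Fgb, the adipocyte genes Adipoq and Cidec, and Alb, Ahsg and Apoa2, with linear axes from 0; numbers by the points are replicates and bars the mean ± SD. Replicates 3 to 6 of 7c are above the vehicle points for Orm1, Hp, Adipoq and Cidec, as is replicate 2 for Cidec, and most 7c points of Fgb, Alb, Ahsg and Apoa2 lie in the lower part of their panels.

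Serpina3n had 0.697 to 1.44 CPM in 7c kidneys and 0.732 to 2.06 CPM in vehicle kidneys (log2 fold change -0.25, SE 0.333, adjusted p = 0.997 by edgeR). Socs3 was the member closest between the tissues, with 1.71 to 3.44 CPM in 7c kidneys and 1.03 to 3.75 CPM in vehicle kidneys. All 6 7c kidneys lay inside the vehicle range for Socs3, and the log2 fold change was -0.09 (SE 0.325, adjusted p = 0.997 by edgeR), while the difference of mean log2 CPM was 0.01. Exact permutation tests of the 15 single values in both tissues gave no p under 0.05, where the smallest p the 210 splits allow is 0.00476.

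Of the other lists in kidney, 0 genes passed the threshold. The 29 tested of the other positive acute-phase proteins had a median log2 fold change of -0.13, with 20 negative and 9 positive, and Itih4, a protease inhibitor heavy chain made in liver, had the smallest p (-1.75, unadjusted p = 0.0220, adjusted p = 0.997 by edgeR). Among the regulators, Cebpb had 9.19 to 17.2 CPM in 7c kidneys and 5.94 to 10.7 CPM in vehicle kidneys, with 5 of 6 7c kidneys above the vehicle range (log2 fold change 0.55, SE 0.205, unadjusted p = 0.0193, adjusted p = 0.997 by edgeR). The chemokine gene Ccl2 had 0.376 to 0.909 and 0.768 to 2.92 CPM (log2 fold change -1.14, SE 0.407, unadjusted p = 0.0155, adjusted p = 0.997 by edgeR). Ctf1, a cytokine of the IL-6 family, had a log2 fold change of 0.43, Il22ra1 of -0.66 and the scavenger receptor gene Cd36 of -0.25, each the smallest p of its list and each with an adjusted p of 0.997 by edgeR.

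Whether the 7c effect differed between liver and kidney was tested as an interaction over the 14163 genes that could be tested in both tissues. None of the 5 members passed the threshold (0 of 5 by edgeR's quasi-likelihood F-test, DESeq2, limma-voom and the likelihood ratio test, against 0.00706% of all genes by the first). At an unadjusted p under 0.05 there was 1 of 5 by the first test, against 2.49% of all genes, and 2 of 5 by DESeq2 and the likelihood ratio test, against 3.07% and 3.01%. Orm1 had the smallest p, its log2 fold change being 1.21 lower in liver than in kidney (interaction -1.21, SE 0.402, unadjusted p = 0.00663, adjusted p = 1.00 by edgeR). Fgb had an interaction of 0.88 (SE 0.443, unadjusted p = 0.0610) and Hp of -0.50 (SE 0.421, unadjusted p = 0.250), both with an adjusted p of 1.00 by edgeR. Socs3 and Serpina3n had -0.09 and 0.03.

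The tissue difference without treatment was read from the 4 vehicle livers and 4 vehicle kidneys. Over the 17245 genes tested, 25.7% were higher in liver, 53.4% passed the threshold in either direction and 58.4% had an unadjusted p under 0.05. All 10 members passed as higher in liver, but Saa1, Saa2, Saa3, Orm2 and Crp, with 0 to 10 counts over the 4 vehicle kidneys, entered the fit only through the livers, where they are high, so that they had to differ and their calls are no result. The other 5 were tested in both tissues, and all 5 were higher in liver, under every alternative run as well. The log2 fold change was 11.72 for Fgb (SE 0.381, adjusted p = 1.72e-09 by edgeR), 11.21 for Orm1 (SE 0.243, adjusted p = 2.59e-10 by edgeR), 10.28 for Hp (SE 0.297, adjusted p = 1.04e-09 by edgeR) and 9.26 for Serpina3n. The members with few kidney counts are given as ratios of CPM, with no test. CPM were scaled within each tissue, and such ratios were below the fitted folds for the 5 members tested in both tissues. For Fgb the ratio was 2190 against a fitted 3364-fold, and for Hp 836 against 1247-fold. Crp, with 10 counts, 8 of them in vehicle replicate 3, had a ratio of 5051 with a counting interval from 2746 to 10532. Saa2 and Orm2 had 0 counts in all 4 vehicle kidneys, so they were at least 278-fold and at least 377-fold higher in liver, taking 3 counts over the pooled group as the limit. Saa1, with 2 counts, had a ratio of 1682 with a counting interval from 465.8 to 13892. Saa3, with 8 counts, had a ratio of 37.0 with an interval from 18.8 to 85.8. These bounds and intervals cover counting error only, and if 1 fragment added 2 counts the bounds would be lower and the intervals wider.

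Socs3 was 1.47 higher in liver on the log2 scale (SE 0.383, adjusted p = 0.00707 by edgeR), with 3.33 to 5.76 CPM in vehicle livers and 1.03 to 3.75 CPM in vehicle kidneys. Over 9 alternative settings its log2 fold change ranged from 0.95 to 1.78. The ratio of CPM, scaled within each tissue, was 1.82, against a fitted 2.78-fold. Per length, Hp was the most abundant member in kidney too (median 5.26 TPM over 10 kidneys), and Socs3 came next (2.19 TPM), where it was ninth in liver. Their kidney ranges overlapped.

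**Figure D5:**
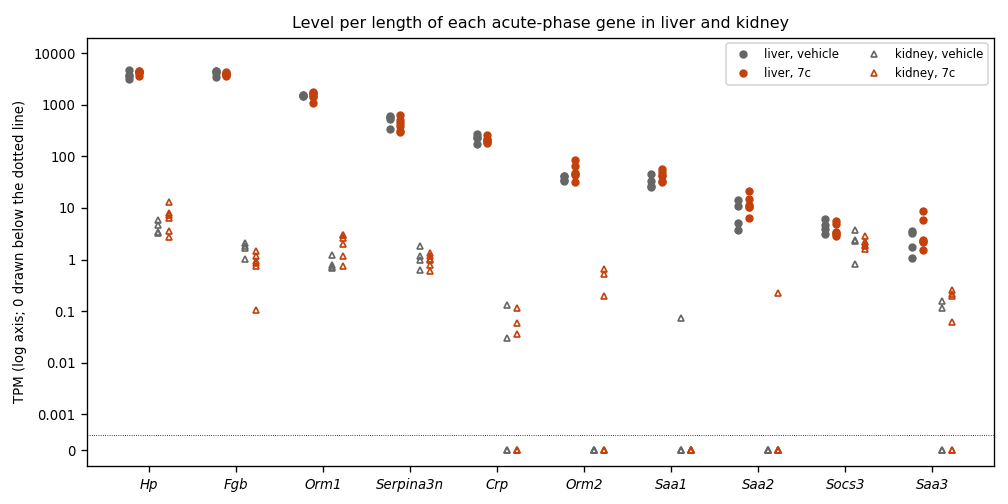
TPM per length of exons, on a log axis, of each gene in all 20 libraries, circles for liver and open triangles for kidney, grey for vehicle and orange for 7c; libraries with 0 counts are drawn below the dotted line. Every liver lies above every kidney for all genes except Socs3, whose ranges overlap.

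The wider pathway was read in the same fit, and its counts include genes that passed the filter only through 1 tissue, whose direction that fixed. Over the other positive acute-phase proteins the median log2 fold change of liver over kidney was 7.05, and 25 of 31 tested were higher in liver and 2 lower. The 3 with the highest mean TPM over all 20 libraries were Hpx (11.39), Serpina1e (11.10) and Serpina1b (8.66), which encode hemopexin and antitrypsins, the latter from near-identical gene copies whose reads may be split. Serpina1e ranged from 31.1 to 11088 CPM in the vehicle livers, its mean there was 6182 TPM and 3646 TPM without vehicle replicate 1, and without its highest library it was the fourth of the list by that mean. The negative acute-phase genes were 10 of 10 higher, with Alb at 11.30, Apoa1 at 11.23 and Trf at 10.04. The median was 0.49 over 18 kinases and transcription factors, with 10 higher and 2 lower, and 0.71 over 17 feedback and early target genes, with 8 higher and 1 lower. Cebpa, which encodes the C/EBP factor of differentiated hepatocytes, was 4.06 higher in liver, Rela, an NF-kB subunit, 0.76 higher, and the difference of the kinase gene Irak1 was 0.24 (adjusted p = 0.167 by edgeR). Of the receptors 7 of 10 were higher in liver, among them Lifr by 2.98, Tnfrsf1a by 0.75 and Il6st, which encodes gp130, by 0.73.

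Of the cytokine ligands 6 genes were tested, 3 of them higher in liver and 1 lower (Lif, named after its values were seen). The most abundant were Il18 with a log2 fold change of 2.86, Ctf1 with 0.13 (adjusted p = 0.676 by edgeR) and Il1b with 1.87. Of the target genes, Nfkbia was 1.58 higher in liver, and Zfp36 1.54 higher, while Fgl1, a fibrinogen-like protein made by hepatocytes, had 4 counts over the vehicle kidneys and is given no fold. Among the genes that handle these proteins, Lrp1 and Scarb1, both receptors on hepatocytes, were 4.33 and 4.56 higher in liver, and Cd36 had a log2 fold change of -2.42, higher in kidney.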

How the data were processed

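The deposited file holds raw counts of 57010 genes by Ensembl identifier in 20 libraries, which the authors aligned to GRCm39 with STAR 2.7.11b and counted with featureCounts 2.0.6. The annotation release, the strand setting and the treatment of reads with several positions are not given in the sources used here. Between 75.1 and 83.2% of counts from 1 to 20 were even, so 1 fragment may have added 2 counts, and counting intervals and limits cover counting error only. Groups come from the labels. Symbols, positions and lengths were taken from GENCODE vM39, which matched 56310 identifiers.

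A gene was tested if 50% or more of the libraries of a tissue held 10 or more counts of it. For the interaction it had to pass in both tissues. For the tissue comparison the 50% was taken over the vehicle livers and kidneys together. Fits used edgeR 4.0.16 (R 4.3.3): TMM, quasi-likelihood F-test, Benjamini-Hochberg adjustment over all genes tested, threshold 0.05. Standard errors are the log2 fold change over the square root of F, and intervals use the degrees of freedom of the fit. TPM was computed from the deposited counts and the summed exon length. Log2 CPM used a prior count of 2. Permutation tests were two-sided, exact over 210 splits or with 100000 resamples. The test was checked on simulated data. P-values of the fits set a difference against the spread between these libraries. The tissue comparison and the interaction treated livers and kidneys as independent, though those of a number may share a mouse.

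The members and lists were chosen with earlier results of these data known. All members were named, and of each of 7 other lists (108 genes) the gene with the smallest p in each tissue, and the 3 with the highest mean TPM for the tissue comparison. Cell markers were read from 10 lists, of which those that moved with a member are given beside it. By edgeR's quasi-likelihood F-test every marker list had 0 genes past the threshold in either tissue. Over all genes, 1 liver gene and 0 kidney genes passed by that test. In kidney, 0 of 4 podocyte, 2 of 4 macrophage and 4 of 5 endothelial genes tested were positive. In liver the counts were 0 of 2, 4 of 9 and 0 of 5, with 1 endothelial gene at an unadjusted p under 0.05 by edgeR. Other settings were DESeq2 1.42.0, RLE scaling, voom from limma 3.58.1 (limma-voom), the likelihood ratio test, filterByExpr or no filter, a replicate block, both tissues in 1 fit and 1 replicate left out (its number in both tissues for the interaction and the tissue comparison). Proteins were not analysed here. After the motif matches were seen, the NF-kB letters were shortened by their first base and an HNF1 motif was dropped.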

Additional observations from a re-analysis of the deposited data

Results flagged for a closer look

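In 30 groups of 4 or 6 libraries, 2 held a value far from the rest by Dixon's criterion, where chance gives about 1 in 20. Kidney Socs3 was 3.44 CPM in 7c replicate 5, with the next kidney at 2.31 CPM and the lowest at 1.71 CPM, and the same kidney had the highest Orm1 and Hp of its group. Liver Fgb was 3427 CPM in vehicle replicate 3, with the other vehicle livers from 4524 to 4623 CPM, and that liver also had the lowest Hp and Saa2 of its group.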

How the results depend on the processing

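The count of members past the threshold was 0 in liver, 0 in kidney, 0 for treatment by tissue and 10 for liver against kidney (5 of them fixed by the filter) under every alternative run, and the counts over the correlations with Saa1, the exact tests and the other lists in the 7c comparisons within liver and within kidney also stayed at 0. Over all genes, the calls ranged from 0 to 7 in liver, 0 to 18 in kidney, 0 to 22 for the interaction and 7958 to 9764 for the tissue comparison. The number of kidney members in the top 10% of genes by spread was 1 (Fgb) and ranged from 0 to 1 with a replicate left out, being 0 without 7c replicate 2, whose kidney had 4 counts of Fgb.

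Values near 0 changed sign. With a replicate left out, the fitted log2 fold change ranged from -0.0059 to 0.11 for liver Orm1, -0.27 to 0.013 for liver Socs3, -0.13 to 0.0023 for liver Fgb, -0.34 to 0.21 for kidney Socs3 and -0.46 to 0.015 for kidney Serpina3n, and the interaction from -0.39 to 0.37 for Socs3 and -0.19 to 0.17 for Serpina3n. The difference of mean log2 CPM ranged from -0.023 to 0.11 for liver Orm1, -0.13 to 0.013 for liver Fgb, -0.34 to 0.27 for kidney Socs3 and -0.45 to 0.026 for kidney Serpina3n. The interaction of Serpina3n was -0.025 by limma-voom. The correlation with Saa1 was -0.093 for Saa3 and 0.11 for Crp with groups centred, and -0.079 for Saa3 by Spearman's rho. The cause was not tested.

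The labels do not say that a number marks 1 mouse, and not every pair correlated over 0.1, so the numbers were not used as pairs. Deviations of same-numbered 7c and vehicle libraries correlated at -0.04 to 0.02 in liver and -0.06 to 0.29 in kidney, and those of same-numbered livers and kidneys at 0.01 to 0.26, over 0.1 in 7 of 10, with 8 of 10 correlating best with their own number, a hint from the data that livers and kidneys of a number may share a mouse. With a replicate block, liver Fgb was 0.0053 and the Serpina3n interaction -0.043, and the block changed no call of a member (0, 0, 0 and 10). No member was correlated between livers and kidneys, since the labels do not tie them to each other. Correlations with Saa1 and genes most like it in kidney could not be run, since Saa1 had 2 counts there.

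Kidney Orm1, Fgb and Serpina3n rested on 4 to 108 counts per library, and Saa1, Saa2, Saa3, Orm2 and Crp had too few counts for a test there, in kidney libraries of 27855849 to 64872451 counts.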
